A study of Macaca mulatta with 9 samples.

Results

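A set of 10 genes of stratified and hillock epithelium, of epithelial membranes and secretions, and of retinoid transport is described here across the prostates of rhesus monkeys exposed to TCDD before birth and during nursing. The genes, KRT13, KRT23, GRHL3, S100A2, ANXA1, ANXA8, MAL2, DMBT1, CRABP2 and RBP4, were found by their symbols in the probe descriptions of the authors' deposited fold-change table, 1 probe for each. They are 10 of 1208 gene symbols in that table and 10 of 15160 probes that were tested. The measured values that chose them were those of these same arrays: the table holds only probes the authors selected on a 1-way analysis of variance and on fold change, and the genes were chosen by their high level at 300 ng/kg. Their differences between the groups are therefore given as a description, with no test. The probe descriptions name human transcripts, and 9 of the 10 symbols, all but ANXA8, were found in the macaque reference table.

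Dams were injected under the skin with vehicle alone, or with 30 or with 300 ng/kg of the persistent dioxin TCDD, on gestation day 20. Further doses of 5% of the first followed at intervals of 30 days and ended 90 days after birth, and the prostates were taken from offspring 7 years after exposure. Each group gave 3 offspring with 1 prostate array each, 9 arrays in all, and whether offspring of a group shared a dam is not stated. The arrays are 1-colour Agilent arrays, and their number limits the precision of every value.

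A stratified epithelium is built in layers, with dividing basal cells below and flattened, keratin-rich cells above. Hillock cells, known from airway and prostatic urethra, are a layered epithelial cell type marked by KRT13. In the prostate such cells lie mostly near the urethra and in the proximal ducts, while the distal glands are lined by secretory luminal cells over basal cells. Vitamin A derivatives hold epithelia in a secretory rather than a squamous state: RBP4 carries retinol in blood, and CRABP2 carries retinoic acid inside the cell to its nuclear receptors.

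Brightness differed between the arrays and was on average highest at 300 ng/kg and lowest at 30 ng/kg. The 75th percentile of processed signal was 514 to 1193 intensity units in vehicle, 343 to 1356 at 30 ng/kg and 1258 to 2374 at 300 ng/kg, so each value below is the log2 of a probe's signal relative to the 75th percentile of its own array. On that scale the floor, 5 signal units of the dimmest array, lies at -6.10. The arrays lay on 3 slides: slide 1 held 2 vehicle arrays, slide 2 held vehicle replicate 3 with replicates 1 and 2 of 30 ng/kg, and slide 3 held replicate 3 of 30 ng/kg with all 300 ng/kg arrays. Vehicle and 300 ng/kg arrays never lay on the same slide. Of the measured genes of secretory luminal cells, MSMB read 4.88 to 6.90 across the arrays and KLK3 read 8.05 to 10.8, with saturated spots on 6 arrays. TGM4, the other such gene, read -4.55 to -2.54 in vehicle, -3.61 to -1.08 at 30 ng/kg and 1.42 to 7.41 at 300 ng/kg.

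All 10 genes stood higher at 300 ng/kg than in vehicle, with log2 differences from 1.55 for S100A2 to 4.31 for CRABP2 and a median of 3.01. The median over all 15160 tested probes was -0.0059. In 9 of the 10 genes, S100A2 being the exception, all 300 ng/kg arrays lay above all vehicle arrays, a pattern that 11.5% of tested probes showed. A difference of at least 2 on the log2 scale was seen for 9 of the 10 genes and for 0.851% of tested probes. The genes were chosen for this contrast, so nothing is read from these shares. For 300 ng/kg against vehicle, no probe of the 15160 passed limma's test at the Benjamini-Hochberg threshold of 0.05 (0 called, 0%), the smallest adjusted p being 0.158. At an unadjusted p under 0.05 there were 2357. The fit called 271 probes without replicate 2 of 300 ng/kg. In bulk tissue, more cells of a type and more RNA per cell cannot be told apart.

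Background correction by normexp, run on the median spot signal with an offset of 50 units, changed how cleanly the groups came apart. It kept all 10 genes above vehicle at 300 ng/kg, from 0.32 to 3.22 where the median of all probes shifted by -0.22, but only ANXA1 and RBP4 then had separate groups. With quantile or median scaling, 9 of the 10 were separate as before. The share of all tested probes with separate groups was not computed under these settings. The genes were chosen for this contrast, so nothing is read from these counts.

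**Figure D1:**
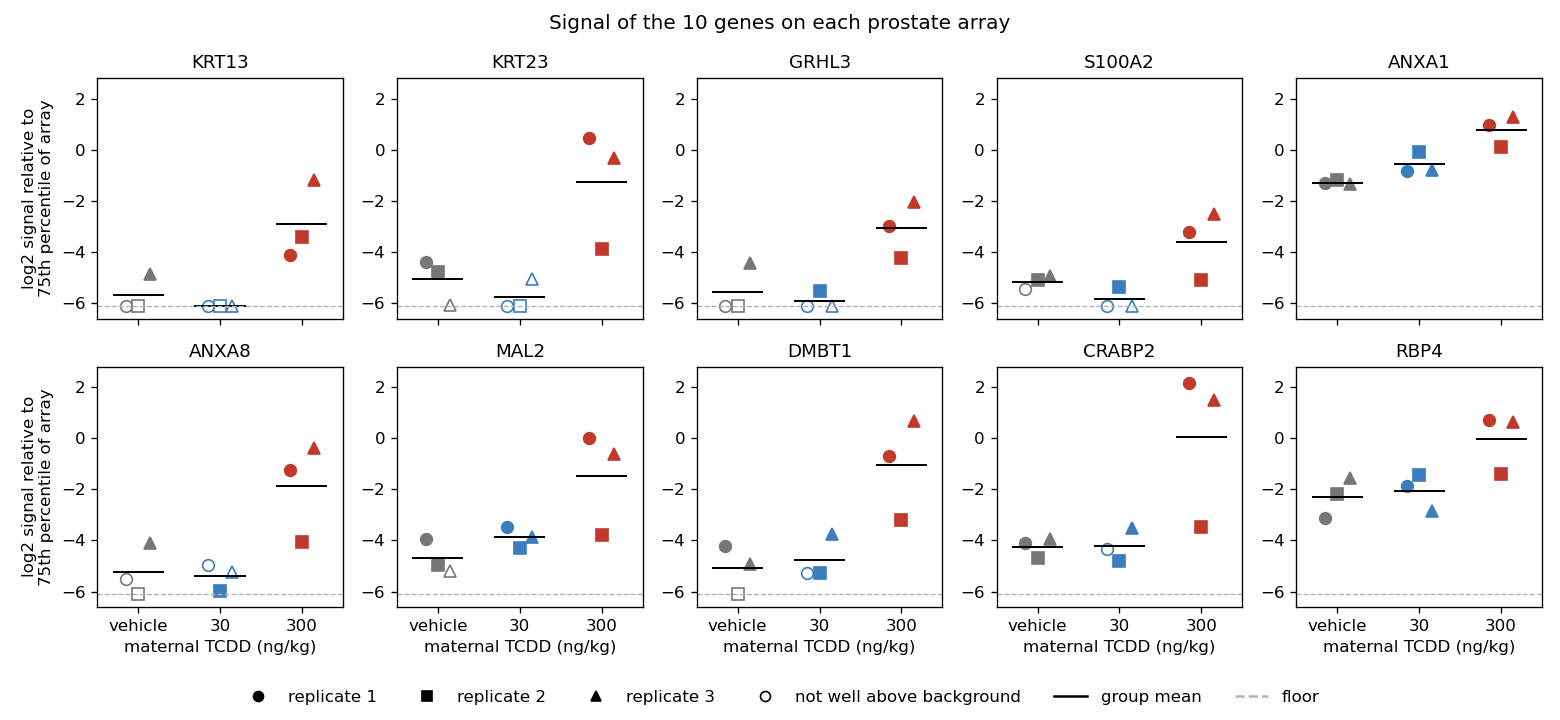
Log2 signal scaled to each array's 75th percentile (vertical axis) for each of the 10 genes on every array, by maternal dose (horizontal axis); each point is 1 animal, its shape is the replicate number, open points are not well above background, black lines are group means and the dashed line is the floor at -6.10. The 300 ng/kg arrays lie above all vehicle arrays for every gene except S100A2, and replicate 2 of 300 ng/kg is the lowest of its group for 9 of the 10 genes.

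The keratins of this set were dim in vehicle prostates. KRT13, the type I keratin of suprabasal cells in non-cornified stratified epithelia and the hallmark of hillock cells, read -6.10, -6.10 and -4.86 in vehicle, -6.10 on each array of 30 ng/kg, and -4.13, -3.39 and -1.20 at 300 ng/kg. It was well above background on 1 vehicle array, on no array of 30 ng/kg and on all 3 arrays of 300 ng/kg. Its difference between 300 ng/kg and vehicle was 2.78 ± 0.67 (log2 ± SE of the fit, n = 3 per group), and between the doses it was at least 4.78-fold higher at 300 ng/kg. That bound did not hold with normexp, where the log2 difference between the doses was 0.41 and the groups overlapped. KRT13 was the gene in which replicate 1, not replicate 2, was the lowest of the 300 ng/kg arrays.

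KRT23, a type I keratin found in simple and glandular epithelia, read -4.37, -4.76 and -6.08 in vehicle, -6.10, -6.10 and -5.03 at 30 ng/kg, and 0.47, -3.88 and -0.31 at 300 ng/kg. It stood 3.83 ± 1.00 above vehicle at 300 ng/kg and was at least 15.2-fold higher there than at 30 ng/kg, where no array was well above background. With normexp the log2 difference of KRT23 between the doses was 1.62, below that bound, and the groups overlapped. In processed signal, KRT23 had 1743, 110 and 1919 intensity units on the 300 ng/kg arrays and at most 43.9 on the other arrays. Replicate 2 thus lay far below replicates 1 and 3, yet above every array of vehicle and 30 ng/kg.

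GRHL3, a grainyhead transcription factor that drives barrier formation in surface epithelia and the superficial layer of the bladder lining, read -6.10, -6.10 and -4.44 in vehicle, -6.10, -5.50 and -6.10 at 30 ng/kg, and -2.97, -4.23 and -2.03 at 300 ng/kg. It stood 2.47 ± 0.61 above vehicle at 300 ng/kg, and replicate 3 of vehicle was 0.21 below the lowest 300 ng/kg array. S100A2, a calcium-binding protein of basal epithelial cells, read -5.43, -5.10 and -4.94 in vehicle, -6.10, -5.36 and -6.10 at 30 ng/kg, and -3.22, -5.09 and -2.52 at 300 ng/kg. S100A2 had the smallest difference of the 10 genes, 1.55 ± 0.57, and its replicate 2 of 300 ng/kg lay among the vehicle arrays.

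The annexins bind membrane phospholipids when calcium is present. ANXA1, an abundant annexin of stratified epithelia and leukocytes that dampens inflammation, was well above background on all 9 arrays and read -1.31, -1.17 and -1.35 in vehicle, -0.82, -0.07 and -0.77 at 30 ng/kg, and 0.99, 0.10 and 1.28 at 300 ng/kg. It was the only one of the 10 genes in which all arrays of 30 ng/kg lay above all vehicle arrays, and the groups did not overlap at either step of dose. Its difference was 0.72 ± 0.34 at 30 ng/kg and 2.07 ± 0.34 at 300 ng/kg. Its vehicle arrays had the smallest spread of any member (SD 0.0932, n = 3).

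ANXA8, an annexin of stratified epithelia, read -5.51, -6.10 and -4.10 in vehicle, -4.94, -5.98 and -5.25 at 30 ng/kg, and -1.23, -4.05 and -0.37 at 300 ng/kg. It stood 3.35 ± 0.88 above vehicle at 300 ng/kg, but replicate 2 exceeded the highest vehicle array by only 0.05. The human gene has near-identical copies, and which macaque copy the probe reads was not analysed here.

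MAL2 and DMBT1 belong to the apical side of epithelia. MAL2, a membrane protein that sorts cargo to the apical surface of polarised cells, read -3.94, -4.98 and -5.19 in vehicle, -3.48, -4.31 and -3.85 at 30 ng/kg, and 0.03, -3.79 and -0.62 at 300 ng/kg. It stood 3.24 ± 0.86 above vehicle at 300 ng/kg, and its replicate 2 there lay below replicate 1 of 30 ng/kg, so that these 2 groups overlapped. DMBT1, a secreted scavenger-receptor glycoprotein of mucosal defence, read -4.22, -6.10 and -4.92 in vehicle, -5.28, -5.27 and -3.74 at 30 ng/kg, and -0.69, -3.19 and 0.68 at 300 ng/kg. Its difference from vehicle was 4.02 ± 0.92, and all its 300 ng/kg arrays lay above the other 6.

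The retinoid carriers were the members with the highest and one of the lower differences. CRABP2 read -4.10, -4.68 and -3.94 in vehicle, -4.35, -4.82 and -3.50 at 30 ng/kg, and 2.16, -3.47 and 1.52 at 300 ng/kg. Its difference from vehicle at 300 ng/kg was 4.31 ± 1.24, with the widest spread of any member in that group (SD 3.08 on the log2 scale, n = 3). In processed signal CRABP2 had 5642, 145 and 6786 intensity units at 300 ng/kg, against at most 51.8 on the other 6 arrays. Replicate 2 minus the mean of the other two arrays of its group was -5.31, and it lay only 0.03 above the highest array of 30 ng/kg.

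RBP4 was well above background on all 9 arrays and read -3.12, -2.17 and -1.57 in vehicle, -1.88, -1.45 and -2.85 at 30 ng/kg, and 0.71, -1.40 and 0.62 at 300 ng/kg. Its difference was 0.23 ± 0.64 at 30 ng/kg and 2.27 ± 0.64 at 300 ng/kg, and replicate 2 of 300 ng/kg exceeded the highest array of vehicle by 0.17 and that of 30 ng/kg by 0.05. RBP4 and ANXA1 were the 2 members measured well above background on every array.

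At 30 ng/kg the set did not move one way. ANXA1, MAL2, DMBT1, CRABP2 and RBP4, 5 genes, stood above vehicle, and 5 stood below (KRT13, KRT23, GRHL3, S100A2 and ANXA8), with a range from -0.69 for S100A2 to 0.82 for MAL2 and a median of -0.07, against 0.02 for all tested probes. Of the 30 member values at 30 ng/kg, 16 were well above background, against 20 of 30 in vehicle. Leaving out KRT13, which had no bound, and setting KRT23 at its bound gave a median of 0.02. The groups were separate for ANXA1 alone, with 4.93% of tested probes separate and higher at 30 ng/kg. limma called 0 probes (0%) at 30 ng/kg against vehicle, with a smallest adjusted p of 0.946 and 766 probes at an unadjusted p under 0.05. With normexp all 10 genes stood above vehicle at 30 ng/kg, by 0.53 to 0.89 where the median of all probes was 0.29. The direction of KRT13, KRT23, GRHL3, S100A2 and ANXA8 at 30 ng/kg thus differed between normexp and the main setting. In processed signal these 5 genes had at most 46.6 units outside 300 ng/kg, less than the normexp offset of 50. The part of that offset in the change of direction was not tested. With quantile or median scaling, 4 genes stood above vehicle.

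**Figure D2:**
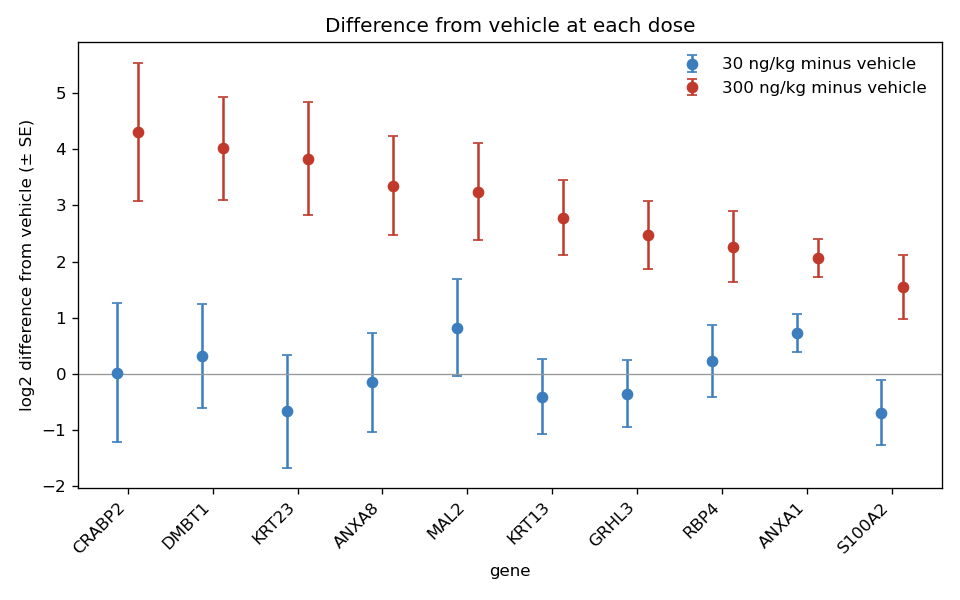
Log2 difference from vehicle (vertical axis) at 30 ng/kg (blue) and at 300 ng/kg (red) for each gene (horizontal axis), ordered by the difference at 300 ng/kg; bars are the SE of the limma fit, n = 3 animals per group. The 300 ng/kg differences run from 1.55 to 4.31 and the 30 ng/kg differences from -0.69 to 0.82; both use the same vehicle arrays.

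Set directly against each other, the 300 ng/kg prostates stood above the 30 ng/kg prostates for all 10 genes. Among the 8 genes well above background on at least 1 array of each dose, the differences ran from 1.35 for ANXA1 to 4.29 for CRABP2. GRHL3, S100A2 and ANXA8 were well above background on only 1 array of 30 ng/kg, so their differences are limited by dim signal. The median over the 10 was 3.01, and 2.63 with KRT13 and KRT23 at their bounds, against -0.03 over all tested probes. All 300 ng/kg arrays lay above all 30 ng/kg arrays for 9 genes, MAL2 being the exception, and for 11.2% of tested probes. limma called 0 probes (0%) between the doses, with a smallest adjusted p of 0.104 and 3130 at an unadjusted p under 0.05. It called 774 without replicate 2 of 30 ng/kg and 155 without replicate 2 of 300 ng/kg. With normexp, GRHL3 turned to -0.07 and S100A2 to -0.34 between the doses, which is 0.45 and 0.18 above the shift of -0.52 in the median of all probes.

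The 300 ng/kg animals did not share one level. Taken as the median over the 10 genes, the arrays stood 3.50, 1.19 and 4.29 above the vehicle mean for replicates 1, 2 and 3. The 3 vehicle arrays stood at -0.15, -0.34 and 0.26, and the 30 ng/kg arrays at -0.16, -0.19 and 0.01. Replicate 2 was lowest of its group for 9 of the 10 genes, as for 30.3% of tested probes, and its difference from the mean of replicates 1 and 3 had a median of -2.70. Over all tested probes that difference had a median of 0.08, and 0.956% of probes lay as low as the member median or lower. Each gene was nonetheless above its vehicle mean on each of the 300 ng/kg arrays, by as little as 0.07 for S100A2 in replicate 2. The genes were chosen for a high level on these same 300 ng/kg arrays, so nothing is read from the shares above.

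Replicates 1 and 3 shared a high level but not its order. Replicate 1 was the highest array for KRT23, MAL2, CRABP2 and RBP4, and replicate 3 for KRT13, GRHL3, S100A2, ANXA1, ANXA8 and DMBT1. The gap between them was widest for KRT13, where replicate 1 minus replicate 3 was -2.93, and smallest for RBP4, where it was 0.09.

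Slide and brightness could be set beside this pattern in part. Within slide 3, all 300 ng/kg arrays lay above the 1 array of 30 ng/kg for 10 of 10 genes, as for 31.7% of tested probes, and the median difference over the genes was 2.92. Slide as a fixed block compares 300 ng/kg with vehicle only through the 30 ng/kg arrays. Slide 1 held vehicle arrays alone, so the vehicle side of that fit rests on vehicle replicate 3. The median difference from vehicle was then 2.40, and every gene, chosen for a high level at 300 ng/kg, stayed above 0. The pair of arrays from 300 ng/kg and another group nearest in brightness was replicate 1 of 300 ng/kg (1258 intensity units) and replicate 2 of vehicle (1193). All 10 genes were higher on the 300 ng/kg array of that pair, by a median of 4.00, where 51.2% of tested probes were higher. The genes were chosen for a high level on these same 300 ng/kg arrays, so nothing is read from this share or that on slide 3. Replicate 2 of 300 ng/kg had 1612 units and was lower than replicate 1 for 9 genes. With brightness as a covariate the median difference from vehicle was 2.99. Across the 9 arrays the genes had a median Pearson r of 0.62 with log2 brightness, given as a description, against -0.01 for all tested probes. That value holds the group difference for which the genes were chosen, since brightness was on average highest at 300 ng/kg. With group means taken out, r ran from -0.26 for MAL2 to 0.60 for ANXA1 and was below 0 for KRT23, ANXA8, MAL2, DMBT1 and CRABP2. The part of brightness in the differences was not tested beyond these values, and with 3 arrays a group it cannot be fully told apart from dose.

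**Figure D3:**
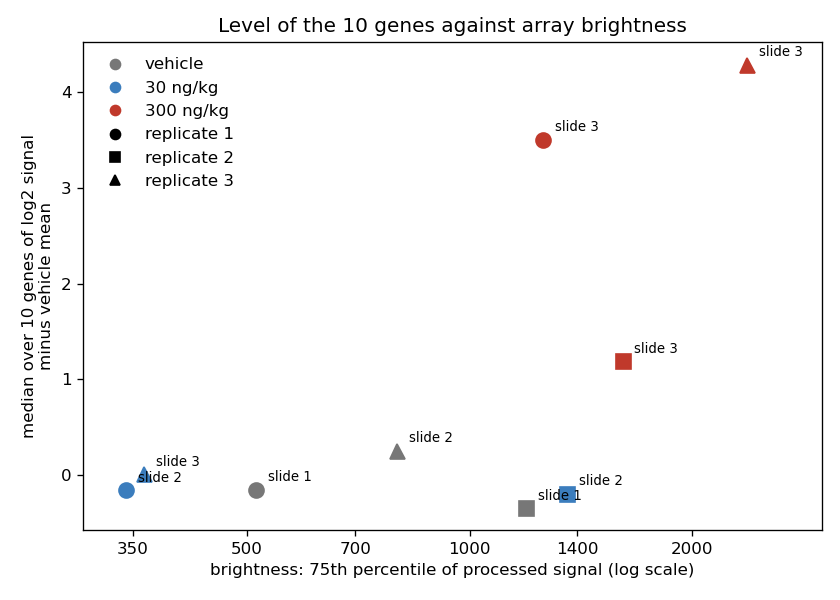
Median over the 10 genes of log2 signal minus the vehicle mean (vertical axis) against the brightness of the array (horizontal axis, log scale); each point is 1 animal, coloured by dose, shaped by replicate and labelled by slide. Vehicle replicate 2 and 30 ng/kg replicate 2 had a brightness close to that of 300 ng/kg replicate 1; that array stands at 3.50, and these at -0.34 and -0.19.

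The 10 genes followed each other across the arrays. Over the 45 pairs, Pearson r across 9 arrays had a median of 0.88 and ran from 0.66 for KRT13 with MAL2 to 0.96 for KRT23 with CRABP2, and 36 pairs exceeded 0.8. The median Spearman rho was 0.70. These values are a description with no test, since the genes were chosen for being high in the same group. The share of pairs above 0.8 was 14.9% among the named probes that the authors selected, and 3.00% among all tested probes.

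The correlation rested on the 300 ng/kg arrays. Without replicates 1 and 3 of 300 ng/kg, the 2 arrays farthest from the median of the genes' mean level, the median r over the 7 others was 0.39, with pairs from -0.72 to 0.91. Over the 6 vehicle and 30 ng/kg arrays alone, the median r was 0.00025 and 22 of the 45 pairs were below 0. All 15 member values at the floor were on these arrays. With the group means taken out of all 9 arrays the median was 0.67, and 11 of the 45 pairs exceeded 0.8. The share of such pairs was 4.32% among the named probes that the authors selected, and 3.71% among all tested probes. The median r with group means taken out was 0.18 without replicate 2 of 300 ng/kg.

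Within the groups, some genes kept closer company than others. KRT23, MAL2 and CRABP2 had pairwise r from 0.90 to 0.93 with group means taken out, and S100A2 and ANXA1 had the highest value of all pairs, 0.94. KRT13 had low values with the first of these sets, with r of -0.05 with KRT23, 0.02 with MAL2 and 0.19 with CRABP2. These groupings were noticed in the same 9 arrays and rest mainly on the order of 3 animals.

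**Figure D4:**
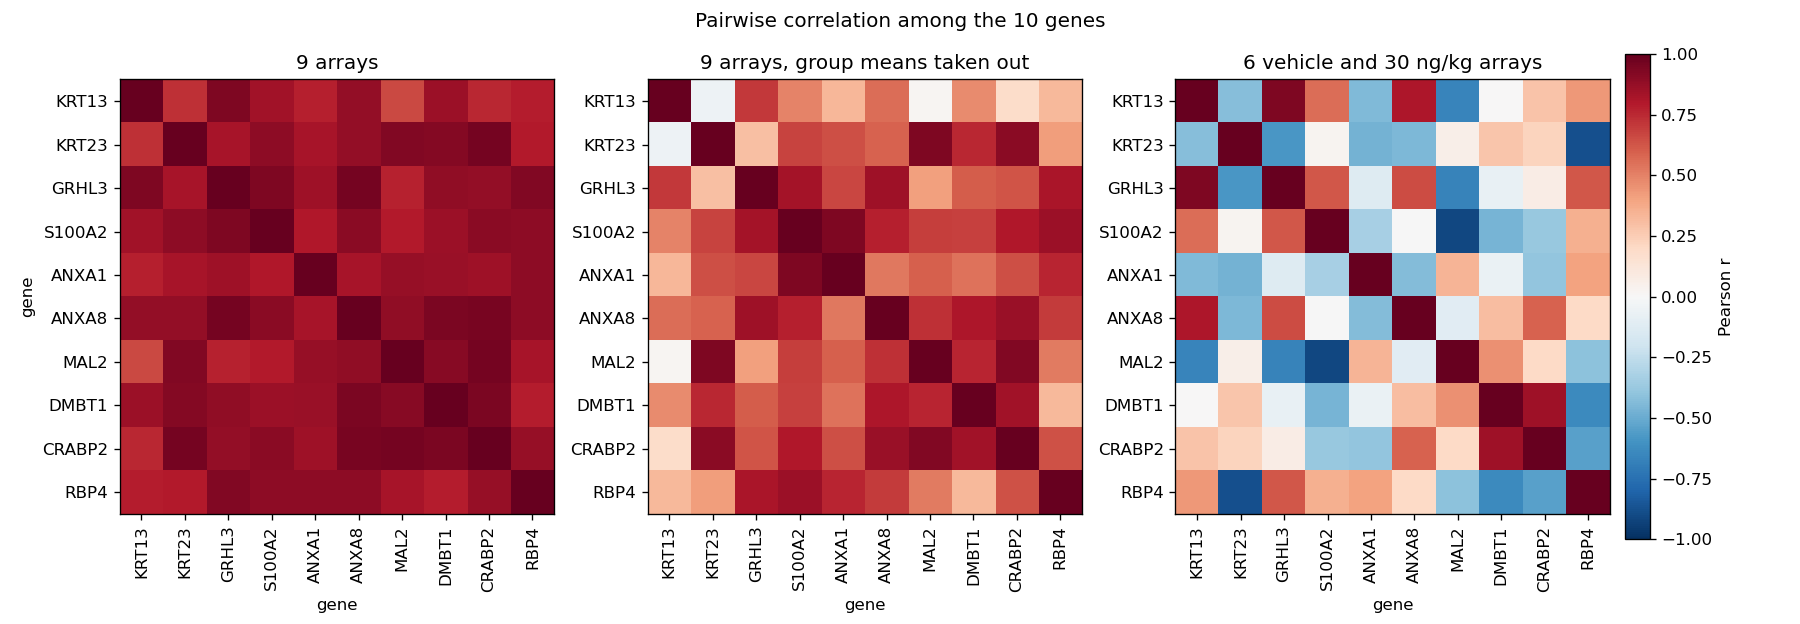
Pearson r (colour, from -1 to 1) between each pair of the 10 genes (both axes) over 9 arrays (left), over 9 arrays with the group means taken out (middle), and over the 6 vehicle and 30 ng/kg arrays (right). The median over the 45 pairs is 0.88 on the left, 0.67 in the middle and 0.00025 on the right.

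Outside the set, the 5 named genes most like the mean of the 10, by Pearson r over 9 arrays among the brightest probes of named genes, were VNN2 (0.99), TGM4 (0.98), DBI (0.98), C20orf133 (0.98) and ADAMTS2 (0.98). VNN2, a pantetheinase, read -1.93, -4.12 and -1.24 at 300 ng/kg and was not well above background on any array of the other groups. With normexp its 300 ng/kg and vehicle groups overlapped, with a difference of 1.49. TGM4, a prostate-restricted transglutaminase of seminal plasma, read 6.81, 1.42 and 7.41 at 300 ng/kg, against -3.89, -4.55 and -2.54 in vehicle. In TGM4, as in most of the 10 genes, replicate 2 lay between vehicle and the other two arrays of 300 ng/kg, the likeness for which it was picked.

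The remaining like genes were broadly expressed or dim. DBI, an acyl-CoA-binding protein, read 4.11, 2.64 and 4.02 at 300 ng/kg, against 2.42, 2.24 and 2.56 in vehicle. ADAMTS2, the procollagen N-proteinase, read -0.80, -1.83 and -0.46 at 300 ng/kg, against -2.39, -2.79 and -2.09 in vehicle. C20orf133 was not well above background outside 300 ng/kg, was at least 1.35-fold higher there than in vehicle, and turned to -0.41 with normexp, which is -0.19 relative to the shift of all probes.

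**Figure D5:**
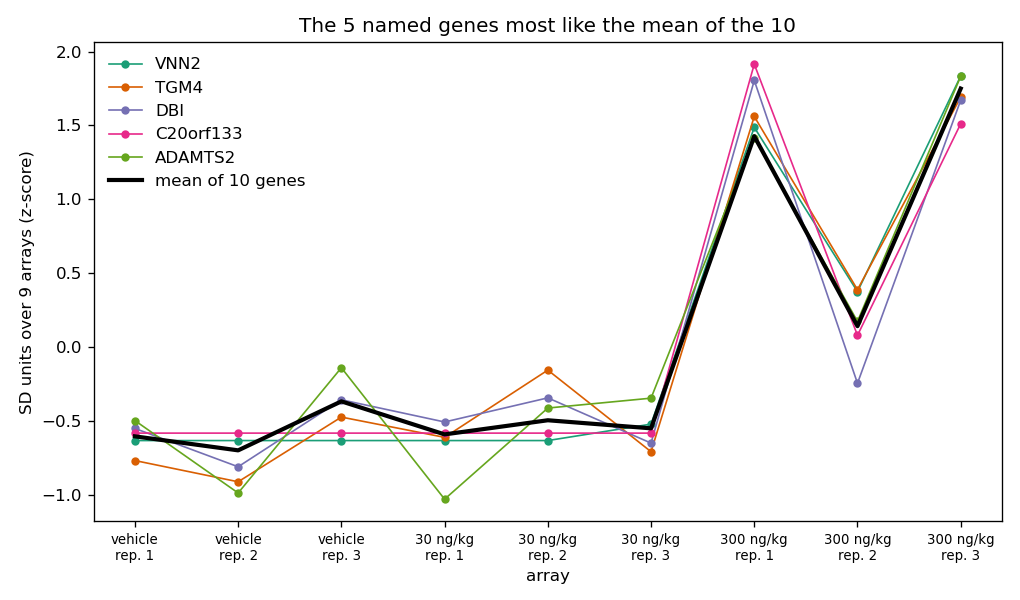
Level on each array (horizontal axis) in SD units over the 9 arrays (vertical axis) for the mean of the 10 genes (black) and the 5 named genes most like it (colours). All 5 are high in replicates 1 and 3 of 300 ng/kg and lower in replicate 2.

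Few other genes of these pathways carried a name. Of 43 further genes of stratified epithelium only CNFN was measured, of 22 of hillock and club cells none, of 36 of retinoid handling only ALDH1A3, of 38 of the members' own families S100A4 and ANXA3, and of 18 of epithelial junctions none. limma called 0 of these 4 genes in any of the 3 comparisons, as it called 0% of all tested probes. Names came from the authors' table alone, so genes without a group difference could not appear.

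These 4 genes differed in their order across the doses. CNFN, a protein of the cornified envelope, read 1.21, 2.15 and 1.53 in vehicle, 2.96, 2.47 and 2.76 at 30 ng/kg, and 1.68, 1.27 and 1.14 at 300 ng/kg, so it was highest at the low dose and overlapped vehicle at the high dose. ALDH1A3, which makes retinoic acid from retinal, read 2.60, 2.29 and 3.32 in vehicle, 3.33, 3.17 and 3.00 at 30 ng/kg, and 2.05, 2.07 and 2.19 at 300 ng/kg. Its difference at 300 ng/kg from vehicle was -0.63 ± 0.28, where those of CRABP2 and RBP4 were above 0, and the groups overlapped with quantile scaling. ANXA3 stood 0.76 ± 0.27 above vehicle at the low dose and 0.70 ± 0.27 above it at the high dose. S100A4, a calcium-binding protein of stromal cells and leukocytes, stood 0.76 ± 0.30 above vehicle at the low dose and 1.37 ± 0.30 above it at the high dose. The differences of CNFN, ALDH1A3, ANXA3 and S100A4 at 300 ng/kg kept their sign with normexp, quantile and median scaling. For CNFN the value with normexp was -0.24, only -0.02 relative to the shift of -0.22 in the median of all probes.

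Few markers of other cell types were measured, and limma called 0 of them in any of the 3 comparisons, as it called 0% of all tested probes. Of 9 smooth muscle markers, LMOD1 and TPM2 were measured, and their summed signal relative to the 75th percentile was 117 to 199 at 300 ng/kg, against 222 to 339 in vehicle, a sum carried mainly by TPM2. LMOD1, an actin nucleator of smooth muscle, averaged -0.80 ± 0.28 (log2 difference ± SE) at 300 ng/kg relative to vehicle, and its r with the members' mean over 9 arrays was -0.94. TPM2, a tropomyosin of muscle, differed by -0.73 ± 0.32, but its 300 ng/kg and vehicle groups overlapped with quantile and with median scaling, and those of LMOD1 overlapped with median scaling. Of 9 leukocyte markers only FCER1A, the mast cell IgE receptor chain, was measured, with a signal relative to the 75th percentile of 0.0146 (the floor) to 0.0230 in vehicle, 0.0146 to 0.0460 at 30 ng/kg and 0.0439 to 0.146 at 300 ng/kg. It was well above background on 1 vehicle array, its 2 dose groups overlapped, and with normexp its difference between 300 ng/kg and vehicle was 0.38 with overlapping groups, against 2.15 without it. Of 14 markers of secretory luminal cells, KLK3, MSMB and TGM4 were measured. TGM4 is given above, and MSMB differed by -0.73 ± 0.36 between 300 ng/kg and vehicle, with overlapping groups. No difference is given for KLK3, which had saturated spots on 6 arrays. The part of these cell types in the result was not tested. The lists for urothelium (8 genes) and seminal vesicle (4 genes), whose epithelia border the prostate, had no named probe and were not analysed here.

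The authors' deposited table gives folds over control at 300 ng/kg from 2.93 for S100A2 to 19.8 for CRABP2, all marked up. For KRT13 the authors' deposited table gives 11.9-fold, where the fit here gives 6.88-fold. Both rest on a floor under the dim vehicle arrays. The authors' raw means matched a floor of 5 units on each array. Here the floor is 5 units of the dimmest array, taken after scaling. With a floor of 1 unit the fit gave a log2 difference of 4.08 for KRT13, against 2.78.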

How the data were processed

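Images were read with Agilent Feature Extraction 9.5.1.1, per the file headers (9.5 per the submitters' processing notes). The deposited processed signal is an intensity, background-subtracted and detrended per array with no normalization between arrays. In the authors' deposited table a fold is a ratio, never under 1, whose direction stands in a separate column, and the group means are log2 values. The spot flags (well above background, saturated, outlier) are deposited 0 or 1 values, and 9 per-sample columns of the table were not used. For 1479 of its 1502 probes, the members among them, its raw means equalled the mean log2 processed signal with a floor of 5, within 0.01.

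Spots flagged as outliers were left out, the 2 spots of a probe averaged, scaled to the array's 75th percentile and floored at 5 units of the dimmest array before log2 was taken. A probe was tested if, in some group, all its spots were well above background on each array, and these 15160 probes of 20217 entered 1 fit of limma 3.58.1 (R 4.3.3) over 9 arrays, with group as the only term and Benjamini-Hochberg adjustment over all tested probes, 2-sided. The fit was tested on simulated data. KRT13, KRT23, GRHL3, S100A2, ANXA8 and DMBT1 entered the test only through 300 ng/kg, the only group in which all arrays were well above background. A gene's brightest probe stands for it. A gene was named if it was 1 of the 10 members, a tested gene of the lists (up to 6 per list), or 1 of the 5 named genes most like the members' mean. A fold is given as "at least" where no array of a group measured the probe above background: that group's arrays then take the lowest signal well above background on that array, or the probe's own where higher. Such a bound holds for the processed signal as scaled here, not for other background corrections. The normexp setting used the median spot signal and an offset of 50 units. It therefore differs from the main setting in more than the background correction. Members and lists were chosen with earlier results of these data known. Replicate numbers name animals and do not pair them. Sequences of the probes were not used here. The spread behind the p-values holds animals and brightness together, and slide only in part. All 300 ng/kg arrays shared a slide, and none of them lay with a vehicle array. Slide can therefore also enter the differences between groups, and the p-values do not allow for that.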

Additional observations from a re-analysis of the deposited data

How the results depend on the processing

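The difference of each of the 10 genes between 300 ng/kg and vehicle stayed above 0 in all 192 values from other settings (0.32 to 6.08). The median over the genes ran from 1.82 with normexp to 3.40 with quantile scaling, and from 2.27 to 3.73 with 1 array left out. The counts of values here and below include settings that cannot change a difference. These are no filter, only the 2 groups compared, the replicate block, and leaving out an array of the group not compared. A single slide alone repeats the values of slide as a fixed block. The genes were chosen for their level at 300 ng/kg, so nothing is read from these counts. At 30 ng/kg against vehicle, 177 of 202 values kept their side. Its median was 0.71 with normexp, 0.48 over the 2 genes well above background on all arrays, and -0.50 with slide as a fixed block or on slide 2 alone, and ran from -0.36 to 0.30 with 1 array left out. Between the doses, 200 of 202 values kept their side, and the median was 1.07 with normexp and 2.32 to 3.51 with 1 array left out. limma called 0 to 271 probes for 300 ng/kg against vehicle, 0 to 1 for 30 ng/kg against vehicle and 0 to 774 between the doses with 1 array left out. Slide as a fixed block gave 6 called probes at 30 ng/kg against vehicle and 2 between the doses, quantile scaling gave 1 and median scaling 3 between the doses. With the replicate block, 1 probe was called between the doses and 0 in both comparisons with vehicle, and every member difference was as without it. Deviations of same-numbered arrays from their group means correlated from -0.26 to 0.54, over 0.1 in 5 of 9 pairs, so the replicate numbers were not taken as pairs. At an unadjusted p under 0.05 the counts ran from 997 to 2860, from 397 to 1937 and from 528 to 4629, the 528 being with brightness as a covariate. The split of these probes into higher and lower at 300 ng/kg against vehicle was 1119 and 1238, but 413 and 833 with normexp and 544 and 2304 with slide as a fixed block. At 30 ng/kg against vehicle it was 489 and 277, but 314 and 83 with normexp and 278 and 1274 with slide as a fixed block. Between the doses it was 1231 and 1899, but 639 and 3820 with normexp, 1648 and 1662 with quantile and 1736 and 1380 with median scaling. The members with all 300 ng/kg arrays above all vehicle arrays were 9 or 10 of 10 with 1 array left out. Fewer arrays make such a separation easier, and the share of all tested probes was not computed there. The genes were chosen for this contrast, so nothing is read from that count. The median correlation was 0.82 to 0.88 over the other scalings and floors and 0.80 to 0.90 with 1 array left out. The causes were not tested. Dim signal limits KRT13, KRT23, GRHL3, S100A2, ANXA8 and DMBT1, which were at the floor on at least 1 array.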
